A study of Homo sapiens with 6 samples.

Results

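Guides against SUMO2, which encodes a small ubiquitin-like modifier, and PIAS1, which encodes a SUMO ligase, were followed through a pooled CRISPR/Cas9 screen in HS-SY-II cells. All 20 guides listed under either gene were taken, of 3653 guides in the count table. SUMO2 and PIAS1 had 10 guides each, and these were split by their number in the library. The 5 in the run of numbers over which gene names are in alphabetical order form the first set, and the 5 after that run the second set. SUMO2 guides were numbers 1226 to 1230 and 3166 to 3170, and PIAS1 guides were 866 to 870 and 1531 to 1535. What distinguishes the sets in design is not stated. The HS-SY-II line comes from a human synovial sarcoma with the SS18::SSX1 fusion, and all groups were of its Cas9-expressing derivative, transduced with the lentiviral guide library and selected with puromycin. The 6 libraries comprised 2 of cells frozen at day 0, 2 of cells cultured for 14 days (day 14) and 2 of subcutaneous tumours in athymic nude mice (in vivo), for which 2000000 cells were placed in the flanks of 4 mice per replicate and tumours were taken at 1 cm3. Athymic nude mice lack T cells. Tumour libraries are numbered here as in the labels (replicates 1 and 2), although a supplement of the study assigns both to replicate 1. The p-values below measure the spread between these libraries, which may be partly technical.

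SUMO proteins are joined to lysines of target proteins by a short enzyme cascade that resembles the one for ubiquitin. The E1 enzyme, a dimer of SAE1 and UBA2, activates SUMO, and E3 ligases such as the PIAS proteins help to pass it to particular targets. SUMO2 is nearly identical to SUMO3, can form chains, and is joined to many chromatin and transcription factors. In a dropout screen a guide whose cut lowers the fitness of the cell becomes rarer as the population grows. The counts measure guide DNA in the cells, and neither editing nor SUMO2 or PIAS1 protein was measured in these libraries.

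SUMO2 lies on the minus strand of chromosome 17 at 75165586 to 75182959 in hg38 (GENCODE v44), with 4 exons in its canonical transcript and 285 coding bases. The guide sequences were not used here, so the coding exons are printed to show what a SUMO2 guide can match. They lie at 75182814 to 75182834, 75181057 to 75181188, 75174752 to 75174823 and 75168342 to 75168401, and are given 5′ to 3′ on the coding strand, without the stop codon. Capitals mark GG, the end of an NGG motif next to which Cas9 cuts, and CC, the same motif on the other strand.
SUMO2 coding part of exon 1: atGGCCgacgaaaagCCCaag
SUMO2 exon 2: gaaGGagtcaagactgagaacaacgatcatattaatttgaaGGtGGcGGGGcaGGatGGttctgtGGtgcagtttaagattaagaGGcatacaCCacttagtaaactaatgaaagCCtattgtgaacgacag
SUMO2 exon 3: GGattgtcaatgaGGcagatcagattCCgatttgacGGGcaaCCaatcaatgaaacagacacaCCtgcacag
SUMO2 coding part of exon 4: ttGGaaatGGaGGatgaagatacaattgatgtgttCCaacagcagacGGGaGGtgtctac
In this short coding sequence 28 candidate sites of 20 bases next to NGG had their cut between coding bases, 3, 12, 7 and 6 of them in exons 1 to 4. For 20 of the 28, the same 20 bases next to NGG also occurred elsewhere on the main chromosomes of hg38. In exon 2 this held for 11 of 12 sites. The copies lay mostly in processed SUMO2 pseudogenes, with 16 sites matched in SUMO2P21, 15 in SUMO2P1 and 14 in SUMO2P17. SUMO4, an intronless relative, matched at 4 sites. PIAS1, on the plus strand of chromosome 15 at 68054309 to 68198603 with 14 exons and 1953 coding bases, had 213 candidate sites, of which 3 had another exact match. Which library guides have such copies, and their part in the counts, was not tested.

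Total counts were 3394352 to 21854232 per library, or 929 to 5983 per guide, with the highest total in day 0 replicate 1. Values below are CPM, counts per 1000000 counts of a library after TMM scaling, and a log2 change is that of log2(CPM + 1) in a library against the mean of both day 0 libraries. The 183 non-targeting guides had median log2 changes of 0.56 and 0.53 at day 14 and 0.61 and 0.40 in vivo. Their lowest values were -2.05 and -2.02 at day 14 and -2.41 and -4.12 in vivo, so guides that cut no gene also drifted, most in the tumours. The libraries of a group correlated at r of 0.672 at day 0, 0.850 at day 14 and 0.660 in vivo, across guides, which are not independent replicates.

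SUMO2 guides of the second set were rarer in both day 14 libraries than at day 0 in each of the 4 guides that could be measured. The fifth, sgRNA_3169, had 0 counts in all 6 libraries, which allows at most 0.137 to 0.884 CPM before scaling (3 counts of a library's total, counting error only), so it gave no change and was left out of the tests. In replicates 1 and 2 in turn, sgRNA_3166 was at 279 and 154 CPM at day 0, 15.7 and 2.66 at day 14, and 74.8 and 14.2 in vivo. sgRNA_3167 was at 139 and 116 CPM at day 0, 15.7 and 1.77 at day 14, and 138 and 51.6 in vivo. Both guides were low in both cultures. Tumour values lay above those of the cultures for sgRNA_3167, where in vivo replicate 1 was within the range of day 0, and overlapped them for sgRNA_3166.

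sgRNA_3168 was at 298 and 365 CPM at day 0, 55.1 and 69.0 at day 14, and 37.1 and 11.6 in vivo. sgRNA_3170 was at 259 and 199 CPM at day 0, 2.09 and 32.4 at day 14, and 2.49 and 1.67 in vivo. Both were below both day 0 values in every later library. This held in both day 14 libraries for 52.3% of all second set guides, and in both in vivo libraries for 46.6%. In the cultures no non-targeting guide had a log2 change as low as any of these 4 guides. In the tumours 6 and 1 non-targeting guides were lower than sgRNA_3166, 53 and 10 were lower than sgRNA_3167, and none was lower than sgRNA_3168 or sgRNA_3170.

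All 5 PIAS1 guides of the second set were rarer in both day 14 and both in vivo libraries than at day 0. Lower in both libraries than in both day 0 libraries were 52.3% of all second set guides at day 14 and 46.6% in vivo. sgRNA_1531 was at 132 and 47.6 CPM at day 0, 1.04 and 0.887 at day 14, and 1.66 and 1.52 in vivo. sgRNA_1532 was at 208 and 150 CPM at day 0, 13.3 and 1.77 at day 14, and 1.11 and 1.52 in vivo. sgRNA_1533 was at 182 and 98.0 CPM at day 0, 18.5 and 1.11 at day 14, and 1.66 and 4.87 in vivo. These 3 guides rested on 4 to 71 counts per later library, against 245 to 5106 at day 0.

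sgRNA_1534 was at 197 and 149 CPM at day 0, 37.3 and 47.5 at day 14, and 41.9 and 1.98 in vivo. sgRNA_1535 was at 54.8 and 109 CPM at day 0, 0.261 and 0.887 at day 14, and 6.65 and 0.456 in vivo, from 1 to 24 counts in a later library. Every later value of the 5 lay below both day 0 values, and sgRNA_1534 kept the largest remainder, 21.6% and 27.4% of its mean day 0 CPM at day 14. Non-targeting guides were lower than a PIAS1 second set guide only for sgRNA_1534, 1 of them in day 14 replicate 2 and 3 in in vivo replicate 1.

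Loss was not limited to the second set. The SUMO2 guide sgRNA_1228 of the first set was at 191 and 155 CPM at day 0, 9.14 and 16.4 at day 14, and 2.22 and 0.761 in vivo. sgRNA_1226, also against SUMO2, was at 297 and 151 CPM at day 0, 80.4 and 26.6 at day 14, and 2.22 and 25.7 in vivo. The PIAS1 guide sgRNA_870 was at 210 and 170 CPM at day 0, 14.6 and 64.1 at day 14, and 24.9 and 1.37 in vivo. For these 3 guides every later library lay below both day 0 libraries. Of all first set guides, 8.04% were lower in both day 14 libraries than in both day 0 libraries, and 13.3% in both in vivo libraries. The share lower in all 4 later libraries is not given here.

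The other 7 guides of the first set were not lost. The 4 against PIAS1, sgRNA_866 to sgRNA_869, had log2 changes of -0.11 to 1.10 at day 14 and -0.60 to 1.17 in vivo. The SUMO2 guides sgRNA_1227 and sgRNA_1229 had log2 changes of 0.53 to 0.82 at day 14, and of -0.71 to 1.44 in vivo. sgRNA_1230, the most abundant SUMO2 guide, was at 579 and 423 CPM at day 0, 574 and 605 at day 14, and 1784 and 2504 in vivo. It made up 23.1% and 19.4% of all SUMO2 counts at day 0, 37.1% and 35.7% at day 14, and 68.0% and 70.8% in vivo. Of the 183 non-targeting guides, 163 and 175 had a lower log2 change than sgRNA_1230 in the tumours, and 47 and 57 at day 14. For the other guides of this paragraph this number ran from 20 (sgRNA_867) to 166 (sgRNA_868) at day 14. In vivo it ran from 19 (sgRNA_1227) to 147 (sgRNA_1229).

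Counted over the members, 12 of the 19 kept guides were lower in both day 14 libraries than in both day 0 libraries, against 31.5% of all kept guides, and 11 of 19 in vivo, against 30.6%. In the second set these were 9 of 9 and 8 of 9, where 52.3% and 46.6% of all second set guides were lower. Higher in both libraries were 4 of 19 at day 14 (27.1% of all kept guides) and 4 of 19 in vivo (23.9%), all of the first set. Of all first set guides, 46.8% at day 14 and 37% in vivo were higher. A log2 change under -2 in both libraries was found for 9 of 19 guides at day 14 (4.77% of all) and 10 of 19 in vivo (8.43%). Of these, 4 SUMO2 and 4 PIAS1 guides at day 14, and 2 and 5 in vivo, were of the second set. Such a change was found for 8.07% of second set and 1.01% of first set guides at day 14, and 14.2% and 1.94% in vivo. In all 4 later libraries this held for 7 guides, against 3.44% of all kept guides and 5.9% of those of the second set. The 7 were sgRNA_3168, sgRNA_3170 and sgRNA_1228 against SUMO2, and sgRNA_1531, sgRNA_1532, sgRNA_1533 and sgRNA_1535 against PIAS1. Guides of a gene share their target and are not replicates of a condition.

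Tested guide by guide with edgeR's quasi-likelihood test and Benjamini-Hochberg adjustment over all kept guides, 0 of 19 were called at day 14 against day 0, where 0% of all guides were called lower. At an unadjusted p under 0.05, edgeR placed 9 lower (7.18% of all), namely the 4 SUMO2 guides of the second set, sgRNA_1228 and the PIAS1 guides sgRNA_1531, sgRNA_1532, sgRNA_1533 and sgRNA_1535, and 1 higher (1.22%), sgRNA_868. DESeq2 called 8 of 19 lower, against 3.47% of all, and limma on the authors' normalized values called 3 lower, against 1.33%. In the second set alone, edgeR placed 12.3% of guides lower at the unadjusted threshold and DESeq2 called 6% lower, against 1.41% and 0.603% in the first. In edgeR the log2 fold changes of those 9 guides ran from -7.09 for sgRNA_1535 to -2.42 for sgRNA_3168, and their lowest adjusted p was 0.305.

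In vivo against day 0, edgeR called 1 of 19 lower (1.14% of all) and 0 higher (0.554%). It was sgRNA_1228 of SUMO2, with a log2 fold change of -6.89 ± 1.22 (SE) and an adjusted p of 0.0426 by edgeR. Just outside the threshold by edgeR were sgRNA_1532 (-7.06, adjusted p = 0.0535), sgRNA_3168 (-3.77, adjusted p = 0.0561) and sgRNA_3170 (-6.78, adjusted p = 0.0609), and on the other side sgRNA_1230 (2.10, adjusted p = 0.0632). At an unadjusted p under 0.05, 9 were lower (12.8%) and 2 higher (12.9%), sgRNA_1230 and sgRNA_868. With its own adjustment DESeq2 called 9 lower (10.3%) and 1 higher (10.9%). In the second set alone, 20.9% of guides were lower at the unadjusted edgeR threshold and 17.1% by DESeq2, against 3.75% and 2.61% in the first. The call of sgRNA_1228 was lost when either day 0 or either day 14 library was left out, when the 2 groups were fitted alone and with the replicate block, and 10 and 14 members were called in either direction without in vivo replicates 2 and 1, where 31.9% and 32.1% of all guides were.

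To take the library and not the guide as the replicate, counts were summed over the kept guides of each gene and set. SUMO2 second set guides together were at 976 and 834 CPM at day 0, 88.5 and 106 at day 14, and 252 and 79.0 in vivo. PIAS1 second set guides were at 774 and 553 CPM at day 0, 70.5 and 52.1 at day 14, and 52.9 and 10.3 in vivo. Neither gene's groups overlapped with day 0, and the share of all sums for which this held is not given here. Of single second set guides, 52.3% at day 14 and 46.6% in vivo were lower in both libraries than in both day 0 libraries. Relative to the day 0 mean, 9.79% and 11.7% of SUMO2 and 10.6% and 7.85% of PIAS1 remained at day 14, and 27.9% and 8.73% of SUMO2 and 7.98% and 1.56% of PIAS1 in vivo. Much of what remained lay in single guides. In the PIAS1 sum sgRNA_1534 held 143 of 270 and 214 of 235 counts at day 14, and 151 of 191 and 13 of 68 in vivo. In the SUMO2 sum sgRNA_3168 held 211 of 339 and 311 of 477 at day 14. There sgRNA_3167 held 497 of 910 and 339 of 519 in vivo.

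By edgeR the SUMO2 second set sum fell at day 14, with a log2 fold change of -3.22 ± 0.70 (SE) and an adjusted p of 0.0475, and 2.63% of all 647 gene by set sums, or 4.89% of the 348 of the second set, were called lower. That of PIAS1 was at -3.44 ± 1.04 (SE), with an adjusted p of 0.0914 by edgeR, and was called by DESeq2 (adjusted p = 0.000138). The share of all sums that DESeq2 called is not given here. In vivo both fell, with log2 fold changes of -2.45 ± 0.68 (SE) for SUMO2 and -4.40 ± 1.09 (SE) for PIAS1 and adjusted p of 0.025 and 0.0171 by edgeR, where 10.8% of all sums and 20.1% of second set sums were called lower. The median over all second set sums was -0.50 at day 14 and -0.26 in vivo. With 1 library left out, the SUMO2 sum at day 14 ran from -3.33 to -3.06. Its call was lost without either day 0 or either day 14 library, in fits that left 1 library in a tested group. It was kept with the 2 groups fitted alone, without the tumour libraries (-3.22, edgeR adjusted p = 3.51e-13). The share of all sums called in that fit is not given here. Both in vivo calls were lost without either day 0 or either day 14 library. They were also lost with the 2 groups fitted alone (edgeR adjusted p = 0.0623 for SUMO2 and 0.0577 for PIAS1). The call of SUMO2 at day 14 was also lost with median-ratio size factors (edgeR adjusted p = 0.0534).

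Neither first set sum was called lower by edgeR, where 0% of the 299 first set sums were, at day 14 or in vivo. At day 14 0% of them were called higher. SUMO2 was at 1535 and 1346 CPM at day 0, 1461 and 1588 at day 14, and 2372 and 3457 in vivo, and PIAS1 at 1618 and 1695, 2007 and 1783, and 2590 and 1909. By edgeR neither was called at day 14, with log2 fold changes of 0.08 (adjusted p = 0.863) and 0.19 (adjusted p = 0.626), which turned to -0.43 and -0.32, also without a call, when scaled to the non-targeting guides. In vivo the SUMO2 sum was called higher at 1.02 ± 0.28 (SE), with an adjusted p of 0.025 by edgeR, but 23.3% of all sums and 40.8% of first set sums were, and the median over all first set sums was 0.77. Without sgRNA_1230, a choice made after its values were seen, the value was -0.29 (edgeR adjusted p = 0.462), and scaled to the non-targeting guides it was 0.16 (edgeR adjusted p = 0.686). PIAS1 was at 0.44 ± 0.27 (SE) in vivo (edgeR adjusted p = 0.208), and at -0.41 with scaling to the non-targeting guides.

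The ratio of second to first set CPM compares both sets of a gene within a library, so that library scaling cancels. For SUMO2 it was 0.636 and 0.620 at day 0, 0.0612 and 0.0672 at day 14, and 0.107 and 0.0231 in vivo. For PIAS1 it was 0.479 and 0.327 at day 0, 0.0356 and 0.0298 at day 14, and 0.0208 and 0.00594 in vivo. Every later value lay below both day 0 values in both genes. The share of the 299 genes for which this held is not given here, and their median change in log2 ratio was -0.96 at day 14 and -1.11 in vivo.

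At day 14 limma called the log2 ratio lower in both genes, with changes of -3.29 ± 0.67 (SE, adjusted p = 0.0154) in SUMO2 and -3.60 ± 0.61 (SE, adjusted p = 0.0107) in PIAS1, a call shared by 15.4% of the 299 genes with both sets. In vivo the changes were -3.66 ± 0.67 (SE, limma adjusted p = 0.00587) in SUMO2 and -5.15 ± 0.61 (SE, limma adjusted p = 0.00171) in PIAS1, with 37.1% of genes called. The call at day 14 was lost in SUMO2 without either day 0 or either day 14 library. In PIAS1 it was lost without day 0 replicate 1, day 0 replicate 2 or day 14 replicate 2. These fits left 1 library in a tested group. With the 2 groups fitted alone both calls at day 14 were kept (limma adjusted p = 1.23e-07 for SUMO2 and 1.08e-07 for PIAS1). The share of genes called in that fit is not given here. In vivo the call of SUMO2 was lost without day 0 replicate 1 (limma adjusted p = 0.058). The ratio fell in most genes, with a median over the 299 of -0.96 at day 14 and -1.11 in vivo. Ordered from the lowest, PIAS1 stood at place 10 and SUMO2 at 14 at day 14, and 5 and 13 in vivo. For SUMO2 in vivo the fall of the ratio also holds the rise of sgRNA_1230, and without that guide, chosen after its values were seen, it was -2.34 (limma adjusted p = 0.0344).

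The cultures and tumours were compared directly to see whether loss differed between them. By edgeR 0 of 19 guides were called in either direction in vivo against day 14, where 0% of all guides were called lower and 0.0277% higher. With p under 0.05 before adjustment, 2 were lower (5.54%), sgRNA_1228 and sgRNA_3170, and 2 higher (8.54%), sgRNA_1230 and sgRNA_3167. DESeq2 called 1 lower (2.11%) and 2 higher (3.91%). The edgeR log2 fold changes were 1.86 ± 0.46 (SE, adjusted p = 0.194) for sgRNA_1230 and 3.44 ± 1.21 (SE, adjusted p = 0.305) for sgRNA_3167. Within SUMO2, guides of the second set therefore had values of either sign between tumours and cultures, from -3.05 for sgRNA_3170 to 3.44 for sgRNA_3167.

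Neither second set sum was called between tumours and cultures. SUMO2 was at 0.77 ± 0.65 (SE, edgeR adjusted p = 0.486) and PIAS1 at -0.97 ± 0.97 (SE, edgeR adjusted p = 0.557), while 0% of sums were called lower and 2.63% higher, and the median over all sums was 0.33. The sign for SUMO2 rested on in vivo replicate 1, since without it the value was -0.30, and without in vivo replicate 2 it was 1.38. PIAS1 was at -2.56 without in vivo replicate 1 and -0.21 without in vivo replicate 2. Each of these fits left 1 tumour library, so no call is read from them.

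Other SUMO pathway genes on the list were SAE1 and UBA2, the activating enzyme, RNF212, a ligase known from meiosis, and the processed pseudogene SUMO1P3. The second set sum of 1 of these 4 was called lower by edgeR at day 14, that of SAE1 at -2.88 (adjusted p = 0.0296), where 4.89% of second set sums were. UBA2 was at -2.05 (edgeR adjusted p = 0.0511) at day 14. In vivo 2 of 4 were called lower by edgeR, SAE1 at -3.14 (adjusted p = 0.011) and UBA2 at -2.09 (adjusted p = 0.0144), where 20.1% of second set sums were. The median of the 4 was -1.51 at day 14 and -1.05 in vivo. RNF212 was at -0.28 and 0.09, and SUMO1P3 at -0.98 and -0.01, both without a call. The SUMO1P3 sum in vivo joined guides that moved apart. Their median edgeR log2 fold change was -1.87, while the highest log2 changes were 2.43 and 2.18 in the tumours. At an unadjusted p under 0.05, edgeR placed 6 of these 10 guides lower in vivo (20.9% of second set guides), and 0 of 10 for RNF212. Neither of the 2 first set sums, of SAE1 and UBA2, was called in either comparison, with medians of 0.30 and 0.84. Of all first set sums, 0% were called in either direction at day 14, and 0% lower and 40.8% higher in vivo.

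The median log2 change of the second set guides was -3.29 and -4.15 at day 14 and -2.29 and -4.25 in vivo for SUMO2, and -3.63 and -5.41 at day 14 and -4.91 and -5.75 in vivo for PIAS1. Lower medians were found among 348 genes for 16 and 10 at day 14 and 54 and 14 in vivo in the case of SUMO2, and for 11 and 4, and 12 and 3, in that of PIAS1. Over these 4 values the 5 nearest genes to SUMO2 by Euclidean distance were PCGF3 of a noncanonical Polycomb complex (1.70), WDR5 of histone methyltransferase complexes (1.84), AAMP (2.13), SAE1 (2.14) and BRD9 of a BAF complex (2.30). At places 2 to 5 from PIAS1 were the splicing factor PRPF19 (1.53), RPS27A, which encodes a ubiquitin fused to a ribosomal protein (1.63), RPL14 of the large ribosomal subunit (1.67) and the replication factor CDC45 (1.71). PIAS1 and SUMO2 were 3.29 apart, and among the 347 other genes SUMO2 was at place 14 from PIAS1 and PIAS1 at place 20 from SUMO2. These distances rest on 4 libraries that share their day 0 reference and are a description.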

How the data were processed

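By the study's methods, guides amplified from genomic DNA were sequenced in pairs and mapped by the authors to the custom library with MAGeCK, which with hg38 is named in the processing notes without a version. The deposited table holds whole-number counts of reads per guide, and a second holds normalized signal, which is each count column times 1 factor per library by a rule not given in the sources used here. Reads carry no molecular identifiers, so the limits given for 0 counts cover counting error only.

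The members, their split and the gene lists were chosen with earlier results of these data known. Guides averaging 30 or more counts at day 0 were kept (3607, with all 183 non-targeting guides), scaled by TMM and fitted over all 6 libraries with edgeR 4.0.16 in R 4.3.3 (glmQLFit, glmQLFTest), without a replicate block. The same test was run on counts summed per gene and set (647 sums). The log2 ratio of the sets, with 1 added to each CPM sum, was tested with limma 3.58.1 in 299 genes. Adjustment was by Benjamini-Hochberg over all features at 0.05. The rule for named genes took SUMO2, PIAS1, the SUMO pathway list and the 5 nearest genes to each over 4 libraries, among genes with at least 3 kept second set guides. By the methods each transduced pool supplied the day 0 cells and both arms. Deviations of equal replicate numbers from their group means correlated over guides at 0.0694 between day 0 and day 14, 0.00198 between day 0 and tumours, and 0.00252 between day 14 and tumours. Alternatives were other scalings, filters and pseudocounts, DESeq2 1.42.0, medians of guides, 2 groups alone, a replicate block, each library left out and the authors' normalized values. The edgeR fits were run on simulated counts with known changes, to check only that the median change was recovered. The simulation gave every guide and library the same spread setting, so it does not bear on the calls reported here. Candidate sites were read from hg38 with GENCODE v44. Part of the SUMO pathway list and of the nearest genes is not reported here.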

Additional observations from a re-analysis of the deposited data

How the results depend on the processing

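All 118 values of the second set sums against day 0 and of the set ratios were below 0, over every alternative run for them, while their calls and the counts of called guides moved. These are refits of the same 6 libraries and not independent of one another. The medians over all genes were also below 0, at -0.50 and -0.26 for second set sums and -0.96 and -1.11 for ratios, at day 14 and in vivo. Of the members, 10, 8 and 3 guides were called at day 14 with the 2 groups fitted alone, by DESeq2 and by limma on the authors' normalized values (0 in the report), against 8.93%, 3.55% and 1.33% of all guides called in either direction. In vivo these were 0, 10 and 6 (0%, 21.2% and 7.57% of all guides), with 5 under scaling to the non-targeting guides (9.4%) and 0 with the replicate block (0%), against 1 in the report (1.69%), and DESeq2 called 3 in vivo against day 14 (6.02%). The SUMO2 second set sum lost its call at -3.19 at day 14 with median-ratio size factors (edgeR adjusted p = 0.0534) and at -2.36 in vivo with the 2 groups alone (edgeR adjusted p = 0.0623), and that of PIAS1 at -4.31 in vivo with the 2 groups alone (edgeR adjusted p = 0.0577). The PIAS1 sum at day 14 was called at -3.44 with the 2 groups alone, -3.40 by DESeq2, -3.93 by limma on the authors' values, -4.69 by the median of its guides and -3.95 scaled to the non-targeting guides (adjusted p 9.72e-09 to 0.0241). The shares of all sums called under these alternatives are not given here.

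With each library left out in turn, 0 to 9 member guides were called at day 14, 0 to 14 in vivo and 0 to 6 in vivo against day 14, while 0% to 8.07%, 0% to 32.1% and 0% to 21.4% of all guides were. SUMO2 second set sums ran from -3.33 to -3.06 at day 14, -3.52 to -1.84 in vivo and -0.30 to 1.38 in vivo against day 14. Those of PIAS1 ran from -3.66 to -3.13, -6.00 to -3.65 and -2.56 to -0.21. The set ratio ran from -3.36 to -3.22 and -4.76 to -2.56 for SUMO2, and from -3.88 to -3.33 and -6.06 to -4.25 for PIAS1, at day 14 and in vivo. At day 14 the ratio of SUMO2 lost its call when any 1 of the day 0 and day 14 libraries was left out. That of PIAS1 kept it without day 14 replicate 1 (limma adjusted p = 0.0479) and lost it when 1 of the other 3 was left out. In vivo the ratio of SUMO2 lost its call without day 0 replicate 1, and that of PIAS1 kept it throughout. Fits that left 1 library in a group take its spread from the other groups.

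First set sums changed sign. For SUMO2 at day 14 (0.08) the value was -0.42 by limma on the authors' values, -0.43 with scaling to the non-targeting guides, -0.0097 to 0.22 with a library left out, lowest without day 0 replicate 2, and -0.0059 without sgRNA_1230. In vivo (1.02) it was -0.27 by the median of the guides and -0.29 without sgRNA_1230, and against day 14 (0.93) it was -0.98 and -0.28. For PIAS1 it was -0.31 and -0.32 at day 14 by the authors' values and the non-targeting scaling, -0.085 and -0.41 in vivo, and -0.097 against day 14 with that scaling, which moved the median of all guides to -0.50 at day 14, -0.83 in vivo and -0.25 between them. The cause was not tested. The replicate block left the calls of all second set sums and ratios as they were, with -3.18 and -2.58 for the SUMO2 sum at day 14 and in vivo. Guides at 1 to 10 counts in a later library carry large counting error.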
